A study of Mus musculus with 2 samples.

Results

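Transcripts of 37 interferon-stimulated genes were measured in mouse liver at baseline, with no interferon treatment named. The genes were chosen by name, from the core of the type I interferon response and from antiviral and interferon-inducible families, and each was found by its stable gene identifier among the 43346 genes listed. The tissue is liver of adult C57BL/6J mice aged 8 weeks, pooled over male and female littermates, with no treatment named in the labels and an unknown health state. There is 1 group of 2 libraries of poly-A RNA, labelled biological replicates 2 and 1. Both carry the same donor identifier, and whether they came from separate animals is not stated in the labels, so differences between them show no more than how far these samples vary and may be technical. Replicate 2 held 61688916 estimated reads and replicate 1 held 60770411, and 1 read on 1000 bases was worth 0.0204 TPM in replicate 2 against 0.0205 TPM in replicate 1. TPM is the share of transcripts after scaling for length. The design has no contrast between conditions, so the text gives the baseline level of the genes and how far the libraries differed.

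Cells make interferons when sensors such as RIG-I and MDA5 meet foreign RNA, or when other sensors meet DNA. Type I and III interferons act through paired receptors and the kinases JAK1 and TYK2 to activate a factor that holds STAT2 and IRF9 and binds a promoter element called ISRE, while interferon gamma acts at an element called GAS. The products of the target genes block viral entry, translation and replication, and many tissues keep a low level of them without infection.

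The promoters of the genes were searched for the core letters of these elements. A RefSeq window of GRCm38.p6, from 250 bases before to 50 bases after the annotated start, was matched by symbol for 27 of the 37 genes, in 31 windows. Usp18, Oas2, Mx1, Mx2, Ifi27, Dhx58, Zbp1, Parp9, Parp14 and Rtp4 had none. The ISRE core was searched as GAAA, any 2 bases, GAAA on both strands, and it was found in 14 of 27 genes (51.9%), against 3.99% of the 27025 genes with a window. With the 250 upstream bases alone, 12 of 27 genes held it (44.4%), against 3.46% of all. The GAS core, TTCNNNGAA, which reads the same on both strands, was found in 6 of 27 genes (22.2%), against 9.55% of all; this motif was added after the values were seen. Such a match describes letters and is not a binding site. The stretches below were chosen to show how the matches are arranged in genes whose values follow. Each is written 5′ to 3′ along its gene with the matched letters in capitals. Up to 15 flanking bases stand on either side, cut where the 250 upstream bases end. The Isg15 stretch is chr4:156200860-156200911 on the minus strand. The Ifit1 stretch is chr19:34640770-34640828 on the plus strand. The Ifit3 stretch is chr19:34583358-34583431 on the plus strand. The Oas1a stretch is chr5:120907526-120907638 on the minus strand. The Oas3 stretch is chr5:120777710-120777749 on the minus strand. The Rsad2 stretch is chr12:26456548-26456587 on the minus strand. The Bst2 stretch is chr8:71537572-71537623 on the minus strand. The Igtp stretch is chr11:58199496-58199546 on the plus strand. The Irf1 stretch is chr11:53769909-53769947 on the plus strand.
Isg15: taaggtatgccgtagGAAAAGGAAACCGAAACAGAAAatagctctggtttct
Ifit1: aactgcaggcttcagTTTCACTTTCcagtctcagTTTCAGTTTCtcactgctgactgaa
Ifit3: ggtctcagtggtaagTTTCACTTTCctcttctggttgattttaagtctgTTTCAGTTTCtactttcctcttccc
Oas1a: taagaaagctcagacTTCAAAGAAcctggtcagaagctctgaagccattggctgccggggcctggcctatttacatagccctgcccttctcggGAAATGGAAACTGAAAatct
Oas3: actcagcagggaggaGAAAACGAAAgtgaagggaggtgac
Rsad2: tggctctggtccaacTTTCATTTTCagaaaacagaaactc
Bst2: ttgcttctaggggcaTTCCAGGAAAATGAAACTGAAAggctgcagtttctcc
Igtp: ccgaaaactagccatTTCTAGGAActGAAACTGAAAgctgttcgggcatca
Irf1: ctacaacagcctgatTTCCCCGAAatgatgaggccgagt
Isg15 held 3 overlapping ISRE cores in tandem, and Bst2 and Oas1a held 2 each in tandem. The Ifit1 and Ifit3 matches lay apart and on the other strand. In Bst2 the GAS core shared bases with the ISRE core beside it, whereas in Igtp and Oas1a the letters were separate. Irf1, Ifi35 and Ifit2 held the GAS core and no ISRE core. In Ddx58 and Ifih1 the ISRE core lay after the start, 3 to 12 and 33 to 42 bases into the gene. The window of Irf7, Irf9, Lgals3bp, Ifi44, Ifi47, Oasl1, Oasl2, Dtx3l, Trim25 and Xaf1 held neither set of letters, which says nothing of the factors that bind these genes.

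**Figure D1:**
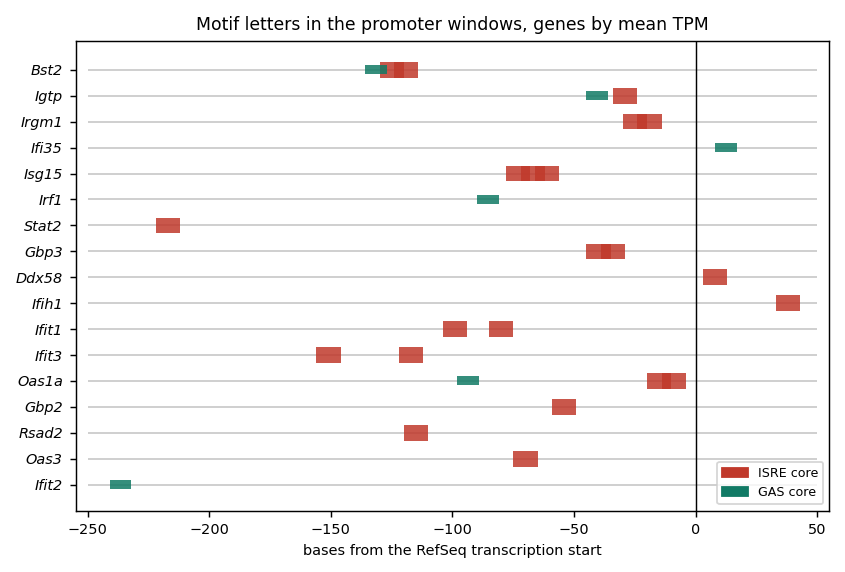
Position of the ISRE core (red) and GAS core (green) letters in the RefSeq promoter windows of 17 interferon-stimulated genes with a match, in bases from the annotated start, with genes ordered by mean TPM from the top. Most matches lay upstream of the start, and Isg15, Bst2, Oas1a, Irgm1 and Gbp3 held overlapping ISRE cores.

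Reads were found for every one of the 37 genes in both libraries, with at least 37 reads in each, and 33 reached 1 TPM in both. Of all 43346 genes listed, 24.7% did so. The exceptions were Ifit2, Mx1, Oas3 and Ifi44. Together the genes held 1742 TPM in replicate 2 against 1319 TPM in replicate 1, or 0.174% and 0.132% of all transcripts in those libraries (mean 1530 ± 299 TPM, SD, n = 2). The sum rested on few genes. Bst2 held 43.4% of it in replicate 2 and 52.1% in replicate 1, and Bst2, Ifi27 and Lgals3bp together held 68.3% and 70.7%. The median gene stood at 11.4 TPM in replicate 2 against 7.73 TPM in replicate 1. By mean TPM, 3 genes lay at or above 100, 8 from 20 to 100, 13 from 5 to 20, 11 from 1 to 5 and 2 below 1.

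**Figure D2:**
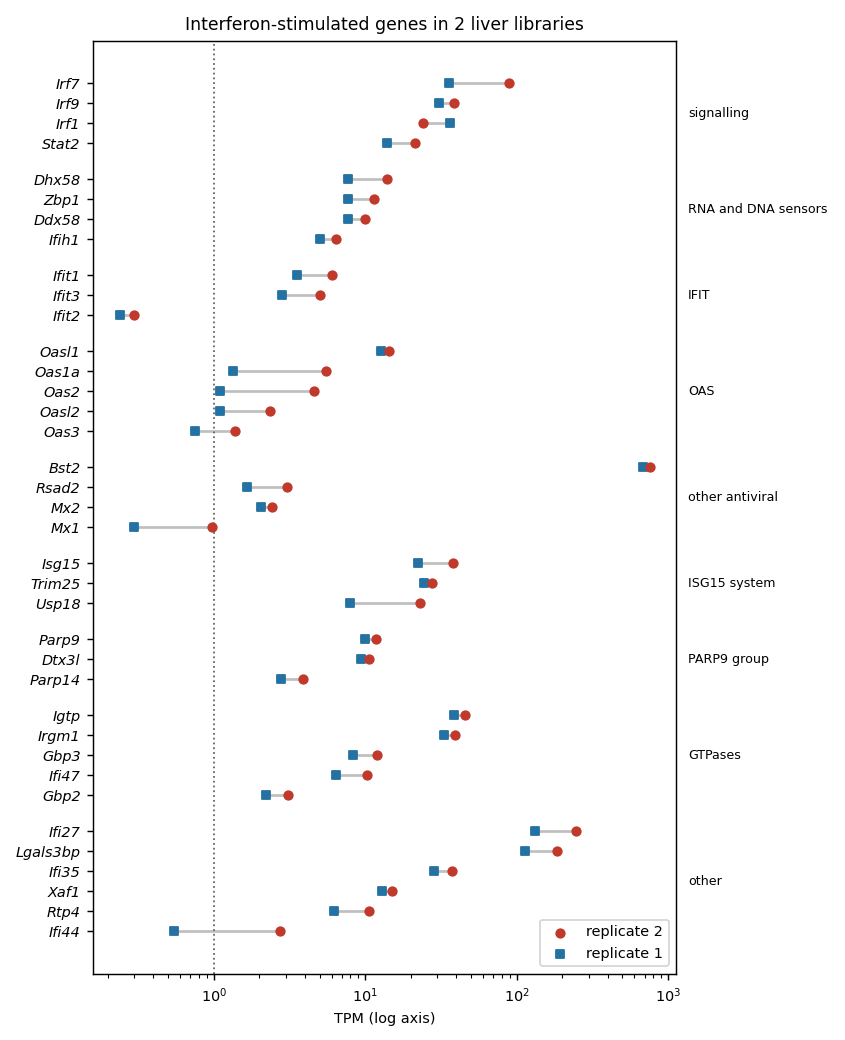
TPM of the 37 interferon-stimulated genes on a log axis, with replicate 2 as red circles and replicate 1 as blue squares, grouped by role and ordered by mean within a role. The dotted line marks 1 TPM. Levels spanned from 0.24 TPM for Ifit2 to 757 TPM for Bst2, and replicate 2 lay above replicate 1 for 36 genes, with Irf1 the exception.

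Replicate 2 held more of most of these transcripts than replicate 1. Library differences were measured as the log2 ratio of TMM-scaled reads, replicate 2 over replicate 1, with 95% intervals that cover counting error only. By an exact binomial test conditional on the reads of each gene, two-sided and adjusted after Benjamini and Hochberg over 14533 genes, 28 of the 37 were called higher in replicate 2, where 28.6% of all genes tested were, and 1 was called higher in replicate 1, where 29.0% of all genes were. The 8 genes not called were Bst2, Dtx3l, Ifit2, Irgm1, Mx2, Parp9, Trim25 and Xaf1. The ratio was above 0 for 36 of 37 genes, against 50.4% of all genes. Its median was 0.48 over the 37 genes and 0.00 over all genes, and 23 of the 37 lay above the 75th percentile of all genes (0.30) and 8 above the 95th (1.10). At a further limit of 1.5-fold, 17 of 37 were called higher in replicate 2, against 10.9% of all genes. This test asks whether these libraries differ by more than counting error and says nothing of conditions. The genes were chosen with earlier results of these data known, this direction among them. The contrast with all genes is therefore a description and no independent support. An edgeR negative binomial exact test that allows every gene the common spread of the libraries, a biological coefficient of variation of 24.2%, called 3 of the 37 higher in replicate 2 (Ifi44, Oas1a and Oas2), against 0.661% of all genes, and none higher in replicate 1. At an unadjusted p below 0.05 that test gave 8 of the 37 higher in replicate 2 and 0 higher in replicate 1, against 600 and 251 of all genes. That spread was estimated from the same libraries. The other 34 genes did not pass this test. Kupffer cell and macrophage markers were also called higher in replicate 2, 12 of 12 with a median ratio of 0.71, though 0 of them passed the edgeR spread test and 3 had an unadjusted p below 0.05 in it. This was not particular to them. By the exact test 7 of 8 sinusoidal endothelial markers (median 0.51) and 3 of 6 B and plasma cell markers (median 1.28) were called higher in replicate 2. The hepatocyte markers had a median of -0.16 with TMM. What part any of these cells had in the differences of the 37 genes was not tested, and in bulk tissue fewer cells of a type and less RNA per cell cannot be told apart.

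**Figure D3:**
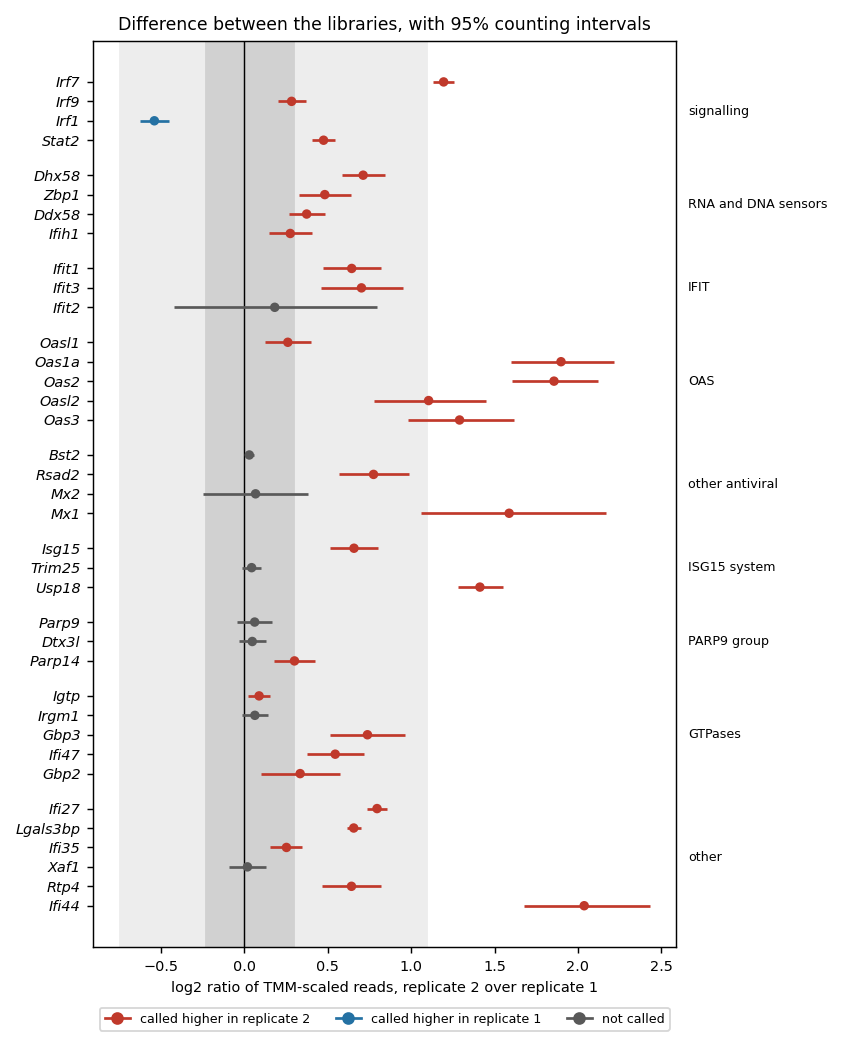
Log2 ratio of TMM-scaled reads, replicate 2 over replicate 1, for the 37 genes by role, with 95% exact counting intervals. Red marks genes called higher in replicate 2, blue the 1 gene called higher in replicate 1 and dark grey those not called. The light band spans the 5th to 95th and the darker band the 25th to 75th percentile of all genes tested. Oas1a, Oas2, Oas3, Mx1, Usp18, Irf7 and Ifi44 lay to the right of the light band with their points, and Oasl2 at its edge.

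**Figure D4:**
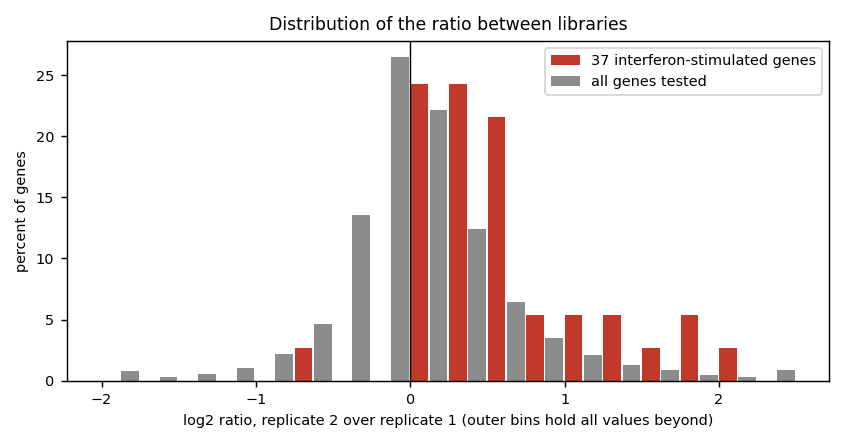
Share of genes (percent) in bins of the log2 ratio, replicate 2 over replicate 1, for the 37 interferon-stimulated genes (red) and for all 14533 genes tested (grey), with values beyond the axis placed in the outer bins. The 37 genes lay to the right of 0 except Irf1, while all genes centred on 0.

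Among the genes of the signalling arm, 3 of 4 were called higher in replicate 2 and 1 higher in replicate 1. Here and in the role groups below, such calls come from the exact test. They stand against 28.6% of all genes called higher in replicate 2 and 29.0% called higher in replicate 1. With the edgeR spread test 0 of the 4 passed with adjustment, and 1 had an unadjusted p below 0.05. Irf7 (chromosome 7, 141262706 to 141266481, minus strand, GRCm38), the transcription factor that amplifies type I interferon production, had 89.1 TPM in replicate 2 against 35.9 TPM in replicate 1, from 7532 and 2976 reads. It was the most abundant of the 37 after Bst2, Ifi27 and Lgals3bp, with a log2 ratio of 1.19 (interval 1.13 to 1.26). Stat2, which joins IRF9 in the ISRE-binding factor, had 21.3 TPM in replicate 2 against 14.0 TPM in replicate 1, with a ratio of 0.47. Irf9, its DNA-binding partner, had 38.8 TPM in replicate 2 against 30.9 TPM in replicate 1, with a ratio of 0.28. Irf1 (chromosome 11, 53770014 to 53778374, plus strand), a factor that responds to interferon gamma through GAS, ran the other way. It had 24.0 TPM in replicate 2 against 36.1 TPM in replicate 1, with a ratio of -0.54 (interval -0.63 to -0.45; adjusted p = 3.82e-33, exact test). The edgeR negative binomial exact test gave Irf1 p = 0.281 before adjustment.

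The RNA and DNA sensors, 4 of 4, were called higher in replicate 2 with a median log2 ratio of 0.43, against 28.6% of all genes called so. These calls rest on counting error alone, and in the edgeR spread test 0 of the 4 had an unadjusted p below 0.05. Dhx58, which encodes LGP2, a helper of the other RNA helicases, had 14.0 TPM in replicate 2 against 7.73 TPM in replicate 1, and its ratio was 0.71. Zbp1, a sensor of Z-form nucleic acid that can start necroptosis, had 11.4 TPM in replicate 2 against 7.71 TPM in replicate 1. Ddx58, which encodes RIG-I, had 9.97 TPM in replicate 2 against 7.67 TPM in replicate 1, and Ifih1, which encodes MDA5, had 6.40 and 5.01 TPM in those libraries. All 4 sensors thus stood within the same range of a few to 15 TPM, and their ratios, from 0.28 to 0.71, lay inside the 5th to 95th percentile of all genes.

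The OAS family makes oligoadenylates that switch on RNase L, which cuts viral and cellular RNA. All 5 of its genes measured here were called higher in replicate 2 (median log2 ratio 1.29), against 28.6% of all genes. Of the 5, 2 passed the edgeR spread test with adjustment and 4 had an unadjusted p below 0.05 in it. Oas1a (chromosome 5, 120896256 to 120907521, minus strand), an active synthetase, had 5.48 TPM in replicate 2 against 1.34 TPM in replicate 1, with a log2 ratio of 1.90 (interval 1.60 to 2.22; exact test, adjusted p = 8.33e-43; edgeR spread test, adjusted p = 0.0368). Oas2 (chromosome 5, 120730333 to 120749853, minus strand), also a synthetase, had 4.60 TPM in replicate 2 against 1.10 TPM in replicate 1, with a ratio of 1.86 (interval 1.61 to 2.12; spread test adjusted p = 0.0404). Oas3, the largest synthetase, had 1.39 TPM in replicate 2 against 0.75 TPM in replicate 1. Its reads numbered 309 in replicate 2 and 114 in replicate 1, a ratio of 1.29, and the deposited effective length, by which TPM is divided, was 4542 bases in replicate 2 and 3101 in replicate 1. Oasl2, an OAS-like gene of the same chromosome, had 2.35 TPM in replicate 2 against 1.10 TPM in replicate 1, a ratio of 1.10. Oasl1, known in mice to hold down translation of Irf7 mRNA, was the most abundant of the family at 14.3 TPM in replicate 2 against 12.8 TPM in replicate 1, and it had the smallest ratio of the family, 0.26. Oas1a shares reads with its near copy Oas1g, and the deposited posterior SD of its count was 1.42% of its reads in replicate 2 and 3.26% in replicate 1. Summed over both copies, 615 reads in replicate 2 and 153 in replicate 1 gave a ratio of 1.86.

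Of the IFIT genes, whose products bind foreign RNA and restrain its translation, 2 of 3 were called higher in replicate 2, against 28.6% of all genes. None had an unadjusted p below 0.05 in the edgeR spread test. Ifit1 had 6.05 TPM in replicate 2 against 3.54 TPM in replicate 1, a log2 ratio of 0.64, and Ifit3 had 5.03 and 2.83 TPM in those libraries, a ratio of 0.70. Ifit3 shares reads with Ifit3b, and the sum of the copies, 529 reads in replicate 2 and 315 in replicate 1, had a ratio of 0.60. Ifit2 was the least abundant of all 37 genes at 0.30 TPM in replicate 2 against 0.24 TPM in replicate 1. From 54 and 43 reads its ratio was 0.18 with an interval of -0.42 to 0.80, so a difference of the size seen in Ifit1 was not excluded at this depth. The 3 genes lie on the plus strand of chromosome 19, with 7.11 kb between Ifit2 and Ifit3 and 52.1 kb, which hold Ifit3b, between Ifit3 and Ifit1.

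The other antiviral effectors spanned the full range of levels. Bst2 (chromosome 8, 71534255 to 71537456, minus strand) encodes tetherin, which holds budding virus at the cell surface. With 757 TPM in replicate 2 against 687 TPM in replicate 1 it ranked 181st among all genes. From 21771 and 19294 reads its log2 ratio was 0.03 (interval 0.00 to 0.06; exact test, adjusted p = 0.0646), so the most abundant of the 37 genes was also among the closest between the libraries. Without Bst2, the remaining 36 genes held 985 TPM in replicate 2 against 632 TPM in replicate 1. The plain ratio of these sums, not in log2, was 1.56, against 1.32 with Bst2. Rsad2 encodes viperin, an enzyme that makes a chain-terminating nucleotide. It had 3.06 TPM in replicate 2 against 1.65 TPM in replicate 1, a log2 ratio of 0.77. Mx1, a dynamin-like GTPase that blocks influenza virus, had 0.98 TPM in replicate 2 against 0.30 TPM in replicate 1, from 124 and 37 reads, a ratio of 1.59 (interval 1.06 to 2.17). Mx2, 72.4 kb away on the same chromosome, had 2.42 TPM in replicate 2 against 2.05 TPM in replicate 1, a ratio of 0.07 (interval -0.25 to 0.38). As background, C57BL/6J mice carry a disrupted Mx1 allele.

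ISG15 is a ubiquitin-like protein that is joined to other proteins during the interferon response. Isg15 (chromosome 4, 156199424 to 156200818, minus strand) had 38.2 TPM in replicate 2 against 22.4 TPM in replicate 1, a log2 ratio of 0.66 (interval 0.51 to 0.80). Usp18, which removes ISG15 from proteins and also damps the type I receptor, had 23.0 TPM in replicate 2 against 7.91 TPM in replicate 1, with a ratio of 1.41 (interval 1.28 to 1.55). Trim25, a ubiquitin ligase that acts on RIG-I, had 27.8 TPM in replicate 2 against 24.5 TPM in replicate 1. Its ratio of 0.04 was not called, so of these 3 genes Usp18 had the largest ratio and Trim25 the smallest. The PARP9 group differed little. Parp9, an inactive ADP-ribosyltransferase on its own, and Dtx3l, the ubiquitin ligase it binds, averaged 10.9 ± 1.24 TPM and 9.96 ± 0.806 TPM over the libraries (SD, n = 2). Their ratios were 0.06 and 0.05, and neither was called. These genes lie head to head on chromosome 16 and overlap by 681 bases of annotation. The libraries are labelled as stranded, but no source used here says whether the counting used the strand. Parp14, an ADP-ribosyltransferase 54.97 kb away, was called higher in replicate 2, at 3.88 TPM there and 2.78 TPM in replicate 1, a ratio of 0.30.

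The interferon-inducible GTPases act on vacuoles that hold bacteria and parasites. By the exact test 4 of 5 were called higher in replicate 2, against 28.6% of all genes, with a median log2 ratio of 0.33. By the edgeR spread test 0 of the 5 had an unadjusted p below 0.05. Igtp and Irgm1, of the immunity-related GTPase family, were the most abundant. Igtp had 45.5 TPM in replicate 2 against 38.6 TPM in replicate 1, a ratio of 0.09 that passed the exact test (adjusted p = 0.0199), while Irgm1 had 39.4 and 33.4 TPM in those libraries, a ratio of 0.06 that did not. The annotation of Igtp overlaps that of Irgm2 on the same strand. Summed over Igtp and Irgm2, 9220 reads in replicate 2 and 6966 in replicate 1 gave a ratio of 0.26. The deposited posterior SD of the Igtp count was 0.07% of its reads in replicate 2 and 0.09% in replicate 1. Ifi47, also of the immunity-related GTPase family, had 10.2 TPM in replicate 2 against 6.39 TPM in replicate 1, a ratio of 0.54. Of the guanylate-binding proteins, Gbp3 had 465 reads in replicate 2 and 252 in replicate 1, a ratio of 0.74, and Gbp2 had 350 and 251 reads, a ratio of 0.33. The TPM of Gbp3 was 11.96 in replicate 2 and 8.37 in replicate 1, a smaller ratio than that of its reads, and its effective length was 791 bases in replicate 2 and 617 in replicate 1.

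The 6 remaining genes included the most abundant after Bst2. Ifi27 (chromosome 12, 103434211 to 103440239, plus strand), a small membrane protein induced by type I interferon, had 248 TPM in replicate 2 against 132 TPM in replicate 1, a log2 ratio of 0.80 (interval 0.74 to 0.85). Lgals3bp (chromosome 11, 118392751 to 118402092, minus strand), a secreted glycoprotein that binds galectins, had 185 TPM in replicate 2 against 113 TPM in replicate 1, a ratio of 0.66 (interval 0.61 to 0.70). Both were called higher in replicate 2, and both passed 100 TPM in each library. Ifi44 (chromosome 3, 151730922 to 151749960, minus strand) had the highest ratio of the 37. It had 2.76 TPM in replicate 2 against 0.55 TPM in replicate 1, from 333 and 73 reads, with a ratio of 2.04 (interval 1.68 to 2.43; edgeR spread test adjusted p = 0.0214). Ifi35, a leucine zipper protein that pairs with NMI, had 37.5 TPM in replicate 2 against 28.3 TPM in replicate 1, a ratio of 0.25. Rtp4, of the receptor transporter family, had 10.6 TPM in replicate 2 against 6.22 TPM in replicate 1, a ratio of 0.64. Xaf1, an antagonist of the apoptosis inhibitor XIAP, had 15.1 TPM in replicate 2 against 13.0 TPM in replicate 1, and its ratio of 0.02 was not called.

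Genes with an ISRE core in the promoter window were compared with those whose window held none, as a description. The 10 genes with no window are in neither group. Their log2 ratios ran from 0.06 in Parp9 to 1.86 in Oas2, with Mx1 at 1.59 and Usp18 at 1.41. The 14 genes with the letters had a median log2 ratio of 0.56, from 0.03 in Bst2 to 1.90 in Oas1a, and the 13 genes without them had a median of 0.26, from -0.54 in Irf1 to 2.04 in Ifi44. The ranges overlapped over most of their length. Bst2, with tandem cores, and Oas1a, with tandem cores nearer to the start, had the lowest and the highest ratio among the genes with the letters.

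In the rest of the pathway, counts of calls from the exact test stand against 28.6% of all genes called higher in replicate 2 and 29.0% called higher in replicate 1. In none of these lists did a gene pass the edgeR spread test with adjustment. The interferons themselves were hardly seen: of 21 interferon genes of types I, II and III, 20 had 0 reads in both libraries. A count of 0 allowed up to 0.0476 to 0.160 TPM in replicate 2 and 0.0483 to 0.165 TPM in replicate 1, depending on gene length. Ifng, which encodes interferon gamma, had 4 reads in replicate 2 and 3 in replicate 1. Among 11 receptor, kinase and STAT genes, 8 were called higher in replicate 2 and 1 higher in replicate 1, with a median log2 ratio of 0.11. Ifnar2, a chain of the type I receptor, had 124 TPM in replicate 2 against 96.7 TPM in replicate 1, a ratio of 0.09, and the lambda receptor chain Ifnlr1 had 11 and 23 reads. Of 12 genes of upstream sensing, 7 were called higher in replicate 2 and 1 higher in replicate 1, with a median of 0.38. Mavs, the adaptor of RIG-I and MDA5, had 115 TPM in replicate 2 against 113 TPM in replicate 1, and its direction depended on the scaling: the ratio of reads was -0.11 with TMM, the 1 gene of the list called higher in replicate 1, and 0.02 and not called with scaling by total reads. Of 7 negative regulators, 2 were called higher in replicate 2, near the share of all genes. In the other direction 1 was called with TMM and 0 with scaling by spike-in reads. The median of these 7 genes, -0.04, turned to 0.08 with scaling by total reads. Among them, Socs3, an inhibitor of JAK kinases, had 6.47 TPM in replicate 2 against 3.39 TPM in replicate 1. Among 48 other interferon-responsive genes, 35 were called higher in replicate 2 and 6 higher in replicate 1, with a median of 0.39, and 6 had an unadjusted p below 0.05 in the spread test, all higher in replicate 2. Ifitm3, which blocks viral fusion in endosomes, had 1079 TPM in replicate 2 against 711 TPM in replicate 1.

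Markers of several cell types were called higher in replicate 2 as well, by the exact test alone. These counts stand against 28.6% of all genes called higher in replicate 2 and 29.0% called higher in replicate 1. In each marker list 0 genes passed the edgeR spread test with adjustment. All 12 Kupffer cell and macrophage markers were called higher in replicate 2 (median log2 ratio 0.71), with a summed level of 417 TPM in replicate 2 against 250 TPM in replicate 1 and none at 0. Clec4f, which marks Kupffer cells, had 45.0 TPM in replicate 2 against 31.9 TPM in replicate 1, and the complement gene C1qc had 89.8 and 55.5 TPM. Of 8 sinusoidal endothelial markers, 7 were called higher in replicate 2 (median 0.51; sum 172 TPM in replicate 2 against 115 TPM in replicate 1). B and plasma cell markers, 6 in all, had a summed level of 10.7 TPM in replicate 2 against 3.85 TPM in replicate 1, with 3 called higher in replicate 2 (median 1.28). Of 5 plasmacytoid dendritic cell markers other than Bst2, which is also one of them, 2 were called higher in replicate 2 (sum 17.2 and 11.6 TPM), and Siglech had 41 reads in replicate 2 and 23 in replicate 1. Of 6 neutrophil and monocyte markers, 4 had enough reads and 2 were called higher in replicate 2 (sum 10.01 and 6.22 TPM). Of 6 T and NK cell markers tested, with 22.9 to 118 reads over both libraries, 0 were called higher in replicate 2 and 1 higher in replicate 1. Of the 6, 3 had a ratio above 0. Cd3d, the gene called higher in replicate 1, had a ratio of -1.09 (interval -1.92 to -0.34), and Cd3g had -0.88 (-2.02 to 0.15). Both intervals lay below the Kupffer cell and endothelial medians. The other intervals were wide at this depth, as for Nkg7 (-0.00 to 1.12 around a ratio of 0.55). For those genes a difference of the size of these medians was not excluded. The 7 stellate cell markers had a median of 0.06, with 4 called higher in replicate 2 and 1 in replicate 1. Of 6 hepatocyte markers, 5 were called higher in replicate 1 with TMM (median -0.16), but 3 were with scaling by total reads (median -0.04) or by spike-in reads (median -0.01), and Alb turned to higher in replicate 2 under both. These markers of the labelled tissue summed to 51159 TPM in replicate 2 against 49343 TPM in replicate 1. What any of these cell types contributed to the 37 genes was not tested.

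**Figure D5:**
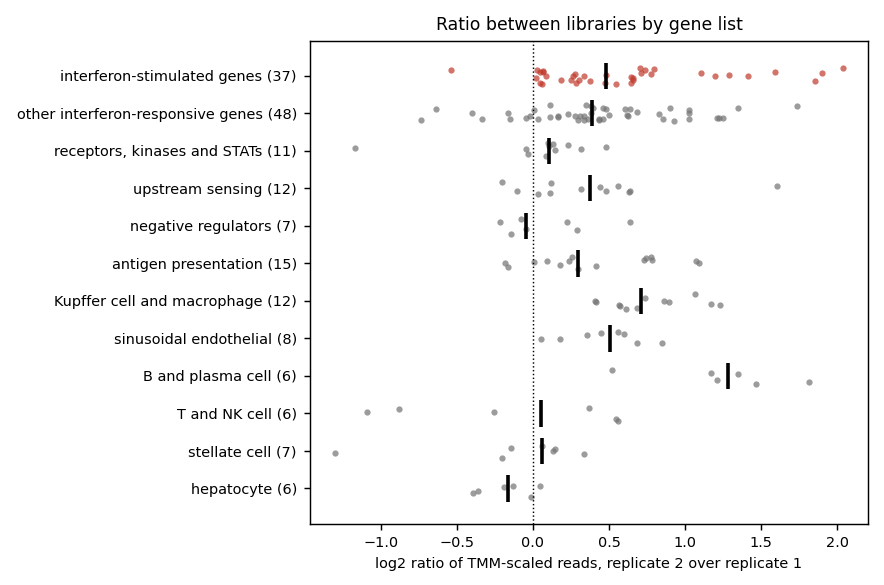
Log2 ratio of TMM-scaled reads, replicate 2 over replicate 1, of each gene tested in 12 lists, with the 37 interferon-stimulated genes in red at the top, black bars at the median and the number of genes in brackets. The medians of the 37 genes (0.48), the other interferon-responsive genes (0.39) and the markers of Kupffer (0.71), endothelial (0.51) and B and plasma cells (1.28) lay above 0. That of the hepatocyte markers lay below it (-0.16 with TMM, -0.04 with scaling by total reads).

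The annotation gives 7 of the 37 genes 1 transcript (Bst2, Ifit1, Ifit3, Isg15, Oas1a, Rtp4 and Usp18) and the other 30 up to 11. Of 28 genes with several transcripts and a mean of at least 1 TPM, 19 had the same most abundant transcript in both libraries (67.9%), against 86.9% of 8035 genes compared in the same way. Over protein-coding transcripts alone, 17 of 21 did (all genes 88.6%). Some of the 9 changes were near ties. The coding Lgals3bp-201 held 49.9% of its gene's TPM in replicate 2 and 46.2% in replicate 1, against 49.6% and 52.9% for the short coding Lgals3bp-205. For Ddx58, the coding Ddx58-201 held 47.9% in replicate 2 and 27.7% in replicate 1, and the non-coding Ddx58-205 held 47.3% and 51.3%. Another coding model, Ddx58-209, held 0.16% in replicate 2 and 17.8% in replicate 1. All non-coding models of Ddx58 together held 51.9% and 54.6%. The other changes were in Irf7, Mx2, Oas2, Oasl1, Oasl2, Parp9 and Zbp1.

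Models that the annotation does not class as protein-coding (retained introns, targets of nonsense-mediated decay and other processed transcripts) held over 30% of the TPM of 9 genes in both libraries: Ddx58, Ifi27, Ifih1, Irf9, Mx1, Mx2, Oas2, Oasl1 and Oasl2. The same share over all genes was not computed, so this count does not set the 37 genes apart. In Irf9 a retained-intron model of 630 bases held 49.6% of TPM in replicate 2 and 51.7% in replicate 1, but 427 of 2724 reads in replicate 2, since TPM weighs a short model up. In Ifi27 the retained-intron model Ifi27-209 held 36.9% in replicate 2 and 37.6% in replicate 1. In Irf7 the retained-intron model Irf7-210 held 32.0% in replicate 2 and 21.3% in replicate 1, with the coding models Irf7-201, Irf7-202 and Irf7-203 at 26.6%, 16.0% and 20.4% in replicate 2. Oas2 divided between the coding Oas2-201, at 39.6% in replicate 2 and 49.6% in replicate 1, and the retained-intron Oas2-204, at 60.4% and 50.4%. In Mx1 a model classed as a target of nonsense-mediated decay held 69.4% in replicate 2, from 87.0 reads, and 35.7% in replicate 1, from 13.5 reads. Mx2 reads went to different models of nearly the same length: the coding Mx2-201 held 47.6% in replicate 2 and 0% in replicate 1, and Mx2-202, classed as a polymorphic pseudogene, held 0.55% and 56.6%. At such counts and with models this alike, the split between transcripts is uncertain.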

How the data were processed

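Strand-specific poly-A libraries of 2 liver samples were analysed from the deposited gene and transcript tables. Per the labels, the file headers and the notes beside them, the authors quantified reads of 76 bases on mm10 with GENCODE annotation M4; no quantifier or aligner is named in those sources. The deposited expected counts are estimated reads, rounded here for the tests. The deposited TPM and FPKM values are scaled for effective length and depth, the deposited isoform percent is a transcript's share of its gene's TPM, and the posterior SD of a count is a score that the authors deposited for each gene. Mm9 junction and contig files were not used. Symbols and coordinates came from GENCODE M21 on GRCm38, matched by stable identifier (42462 of 43346 genes). Spike-in RNA, 2.52% of TPM in replicate 2 and 2.56% in replicate 1, stayed out of the tests.

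TMM factors from edgeR 4.0.16 under R 4.3.3 scaled the counts. The 14533 genes with 20 or more reads over both libraries were tested with an exact binomial test conditional on the total (two-sided, scipy 1.17.1), adjusted after Benjamini and Hochberg at 0.05. The log2 ratios used a prior count of 0.5. Intervals (95%, Clopper-Pearson) and the 3-read limit for a count of 0 cover counting error only, since reads are not independent molecules. The test was tried on simulated data with known changes. Those data held counting error only and not the wider spread of these libraries, so they do not show how the test behaves here. The edgeR negative binomial test, and the GAS motif, were added after the values were seen; the other alternatives were total-read, spike-in and DESeq2 1.42.0 scaling, other count and TPM limits, and leaving out a library. All 37 genes are named, with full values for the 8 most abundant, those called at 1.5-fold and at least 1 of each role, and up to 3 of the most abundant genes of each other list. Ifng, Ifnlr1, Clec4f, Siglech, Socs3, Cd3d, Cd3g, Lrat and the genes of the closing section were named after their values were seen. The members and gene lists were chosen with earlier results of these data known, among them that interferon and Kupffer cell genes were higher in replicate 2, so that direction is no independent support. Of the sensing list 1 symbol, and of the other interferon-responsive genes 3 symbols, found no match and were not analysed here. Some genes that the naming rule selects are not reported.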

Additional observations from a re-analysis of the deposited data

How the results depend on the processing

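Of 42 alternatives, 37 were counted as the same as the main result, a label for which no numeric limit is given here. Values still moved among them. The median log2 ratio of the interferon-stimulated genes was 0.63 with scaling by spike-in reads, against 0.48 with TMM. The genes detected in both libraries numbered 24 at a limit of 5 TPM, against 33 at 1 TPM. The other 5 alternatives follow. With a limit of 2-fold in place of 1.5-fold, 8 of the 37 genes were called higher in replicate 2, against 5.40% of all genes. With the edgeR negative binomial test, chosen after seeing the data, 3 were called higher in replicate 2, 0 higher in replicate 1, and 3 at 1.5-fold. The sum in deposited FPKM averaged 1222 (1387 in replicate 2 and 1058 in replicate 1, a plain ratio of 1.31, not in log2), a different unit from TPM. Leaving out a library gave a summed level of 1319 to 1742 TPM and 33 to 35 genes detected, and no ratio.

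Scaling by total reads or by spike-in reads moved the median log2 ratio of all genes to 0.13 or 0.15, and the share of all calls that were higher in replicate 2 to 69.3% or 73.7%, from 49.7% with TMM. Under either, 34 of the 37 genes were called higher in replicate 2 and Ifit2 and Mx2 were not called. Relative to all genes the median of the 37 was 0.48 under each. Irf1 was the 1 gene called higher in replicate 1 under all 4 scalings. No paired analysis was possible because the design has 1 group. Depth limits Ifit2, Mx1 and the interferons, and with 2 libraries the spread is poorly known.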

Other observations

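Antigen presentation genes, many of which respond to interferon gamma, were measured as a further list. Of 15, 12 were called higher in replicate 2 and 2 higher in replicate 1 by the exact test, against 28.6% and 29.0% of all genes, with a median log2 ratio of 0.29. By the edgeR negative binomial test 0 passed with adjustment and 2 had an unadjusted p below 0.05. B2m, the light chain of class I molecules, had 2198 TPM in replicate 2 against 1910 TPM in replicate 1, a ratio of 0.09. The class II genes stood further apart: Cd74, the invariant chain, had 168 TPM in replicate 2 against 90.1 TPM in replicate 1, a ratio of 0.78, and H2-Ab1 had 131 and 66.5 TPM, a ratio of 0.74. Nlrc5 and Ciita, the activators of class I and class II genes, had ratios of 1.09 and 1.07. The immunoproteasome gene Psmb9 had 28.3 TPM in replicate 2 against 29.5 TPM in replicate 1 and a ratio of -0.18, called with TMM but not with scaling by total reads (-0.06) or by spike-in reads (-0.03).

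Of the 48 other interferon-responsive genes, the 6 called higher in replicate 1 with TMM were Lgals9, Tdrd7, Nmi, Tor3a, Trim21 and Herc6. Tor3a had 376 reads in replicate 2 and 566 in replicate 1, a ratio of -0.73, and Herc6 had 306 and 430 reads, a ratio of -0.63. Tor3a and Herc6 were called in that direction under all 4 scalings, whereas the call of the other 4 was lost under scaling by spike-in reads.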
